A study of Mus musculus with 2 samples.

Results

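The cells described here are the Chgb-high cells of the esophageal epithelium of p63-KO mouse embryos. They were the cells with at least 5 UMIs (unique molecular identifiers, each a counted RNA molecule) of Chgb per 10000 UMIs of the cell, a unit written CP10K below, and with under 10 CP10K of 5 ciliated cell genes (Dnah12, Spag16, Rp1, Dynlrb2 and Cfap54) in sum. In the p63-KO library 159 of 2422 cells that passed the filter met this rule, 6.56% (exact binomial 95% interval 5.61 to 7.63). Of these 159 cells, 156 held an Epcam UMI, and they were set beside the other 1692 p63-KO cells with an Epcam UMI. The series held 8209 passing cells, 2422 from p63-KO embryos (p63-CreER/p63-CreER, with 2 copies of the allele) and 5787 from littermate controls labelled wild type, whose genotype was p63-CreER and which thus carried the allele too. All embryos were C57BL/6 at E18.5, and there was 1 library of dissociated esophageal epithelium per group. The labels name no replicate embryos, do not describe how the allele disrupts the gene, and mention no induction of the recombinase.

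Neuroendocrine cells are scattered epithelial cells that make peptide hormones and store them in dense-core granules until a stimulus triggers release. Chromogranins such as the product of Chgb pack the granules, and prohormone convertases cut the hormone precursors inside them. Such cells are known from the gut and airway epithelium, where Notch signals from neighbouring cells hold their differentiation back.

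The somatostatin, chromogranin B and secretogranin II genes are shown first, because 1 known regulatory motif stands in each of their promoters. The cAMP response element, TGACGTCA, is the site of CREB and its relatives, and was searched from 250 bases before to 50 bases after each gene's start in the RefSeq promoter table (GRCm38.p6). Being its own reverse complement, the motif reads the same on both strands. The 150 bases before the RefSeq start are given, 5′ to 3′ on the gene's strand, with the motif in capitals. The Sst window is chr16:23890845-23890994, minus strand, with the motif 48 to 41 bases before the start. The Chgb window is chr2:132781492-132781641, plus strand, with the motif 72 to 65 bases before the start. The Scg2 window is chr1:79440027-79440176, minus strand, with the motif 68 to 61 bases before the start. GENCODE M21 places the starts of these genes further upstream, so the windows lie partly (Sst, Scg2) or wholly (Chgb) within its gene spans.
Sst: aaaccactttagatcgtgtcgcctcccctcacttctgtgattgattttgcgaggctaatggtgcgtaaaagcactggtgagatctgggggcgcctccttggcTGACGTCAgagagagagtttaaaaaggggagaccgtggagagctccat
Chgb: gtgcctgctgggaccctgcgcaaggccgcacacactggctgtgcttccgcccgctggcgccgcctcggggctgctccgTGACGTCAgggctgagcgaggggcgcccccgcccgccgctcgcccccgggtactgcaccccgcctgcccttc
Scg2: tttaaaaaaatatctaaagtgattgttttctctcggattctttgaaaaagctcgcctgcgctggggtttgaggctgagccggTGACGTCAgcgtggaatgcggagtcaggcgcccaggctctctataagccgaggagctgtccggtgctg

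The motif stood in 549 of 27025 promoters in the table, 2.03%, and in 360 of 9949 promoters of genes measured in these cells, 3.62%. Among the granule and prohormone processing genes it stood in 4 of 17 (Chgb, Scg2, Pcsk1 and Slc18a2), and among the peptide hormone genes in 3 of 33 (Sst, Cartpt and Ucn). It stood in 1 of 24 promoters of neuroendocrine transcription factors (Pax6). The promoters of Calca, Cck, Pyy, Iapp and Chga had no match to the full palindrome. Variants of the element were not searched, so they may still hold one. A match of letters describes the sequence and shows no binding.

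The Chgb threshold cut through a continuous range of Chgb RNA. Chgb ranged from 5.06 to 692 CP10K among the members, with a median of 13.8. Just inside the threshold, 15 cells had 5 to under 6 CP10K, and just outside it 19 cells had 4 to under 5. A further 125 Epcam cells, among the 1692 others, held 1 to under 5 CP10K of Chgb. The ciliated genes removed 1 cell with enough Chgb, and 4 more barcodes with enough Chgb had failed the filter on genes, UMIs and mitochondrial RNA. Of the 12477 Chgb UMIs in all passing p63-KO cells, 88.7% lay in the members.

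No wild-type cell met the rule. Of 5787 passing wild-type cells 0 did, where 3 counts would allow a share of 0.0518%, and 7 wild-type cells held a Chgb UMI. The members had a median of 13441 UMIs (1002 to 62675), the other p63-KO Epcam cells 26722.5, the 451 p63-KO fibroblasts 10782 and the 5459 wild-type Epcam cells 11398. The libraries held 86504624 (p63-KO) and 76472445 (wild type) UMIs in all. Within the p63-KO library the members were found both among cells with Xist RNA and among cells with Y-linked RNA, so they came from at least 2 embryos. They were 100 of 1039 cells with Xist RNA alone (9.62%, 7.90 to 11.6) and 47 of 396 cells with Y-linked RNA alone (11.9%, 8.85 to 15.5). Cells with both kinds of RNA held 10 members among 386 cells. Barcodes were shared between the libraries in 8 cases, of which 2 were members.

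The label neuroendocrine was checked against 9 further markers that the rule did not name. Each of these, among them Chga, Scg2, Scg5, Syp, Insm1, Resp18, Pcsk1 and Uchl1, was found in the members, and 157 of 159 cells held at least 3 of them, against 357 of 1692 other Epcam cells. Summed over the 9 genes, the members held a median of 67.5 CP10K (8.82 to 176), the other Epcam cells 0.122 (0 to 109) and the fibroblasts 0. Markers of thyroid, airway and stomach were at or near 0: Nkx2-1, Tg, Pax8, Sftpc, Atp4b, Gkn1 and Barx1 had no UMI in the members, out of 2278256 UMIs in all. Of the ionocyte markers Ascl3, Atp6v1b1 and Bsnd had no UMI, and Foxi1 had 3 UMIs.

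Markers of several other cell types were present in some members. All 7 fibroblast markers were found, summing to 1446 CPM (UMIs per 1000000 of the summed UMIs) in members, 1518 in the other Epcam cells and 40051 in the fibroblasts. Of 1203 collagen UMIs (Col1a1, Col1a2 and Col3a1) in the members, 1111 came from 3 cells. Dcn RNA was more widespread, with 5.36 UMIs per Col1a1 UMI in the members, 1.64 in the other Epcam cells and 0.430 in the fibroblasts. Smooth muscle markers summed to 285 CPM in the members and 271 CPM in the other Epcam cells, and only 2 members held 3 or more of them. Of the 6 tuft cell markers 5 were found, summing to 198 CPM in members, 39.4 CPM in the other Epcam cells and 200 CPM in the fibroblasts. Most of this was Dclk1 (407 UMIs in members, 179 CPM), which neurons also express, while Trpm5 had 0 and Pou2f3 7 UMIs, and 1 member held 3 or more of the list. All 8 ciliated markers that the rule did not use were found, at 158 CPM in members and 317 CPM in the other Epcam cells, and 23 of 159 members and 511 of 1692 others held 3 or more, with 1 Foxj1 UMI in the members. The part of this RNA in the ratios below was not tested.

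A single member carried much of the Krt15 and Wfdc2 RNA of the class, and another much of the RNA of several mucous genes. The first, a Calca-led cell and the deepest with 62675 UMIs, had 7.18 CP10K of Chgb, 73.9 of Krt15 and 51.1 of Wfdc2. It held 1 Xist and 25 Y-linked UMIs. It was not among the cells with the highest doublet scores. The other, a Calca-led cell of 41849 UMIs that was among them, had 11.0 CP10K of Krt15 and 11.5 of Wfdc2. Of the members' mucous RNA it held 158 of 200 Agr2, 129 of 173 Tff2 and 69 of 91 Muc5b UMIs. The deepest cell held 7, 1 and 0 of these. No other member reached 5 CP10K of Krt15 or Wfdc2, and values without these cells are given below.

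All 9 enteric neuron markers were found in the members, at 646 CPM in sum against 33.1 CPM in the other Epcam cells. Of these, Stmn2 (223 CPM), Elavl4 (275 CPM) and Ret (104 CPM) made up most, and neuroendocrine cells can express them too. At least 3 of the 9 markers were held by 76 of 159 members and 103 of 1692 others, and the median sum in members was 4.60 CP10K (0 to 82.6). The defining enteric neuron genes Phox2a and Prph had 28 and 30 UMIs in all 159 cells. Most of these came from a single member without an Epcam UMI, which held 24 Phox2a, 27 Prph, 12 Chat, 5 Tac1, 4 Vip and 0 Calca UMIs. It also had no Krt8, Krt18 or Cdh1 UMI and 13 Chgb UMIs. The other 2 members without Epcam held 170 and 5 Asic2 UMIs and no Phox2a or Prph. No count of list members at least 2-fold higher or lower moved by more than 1.5 times when the 3 cells were left out.

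**Figure D1:**
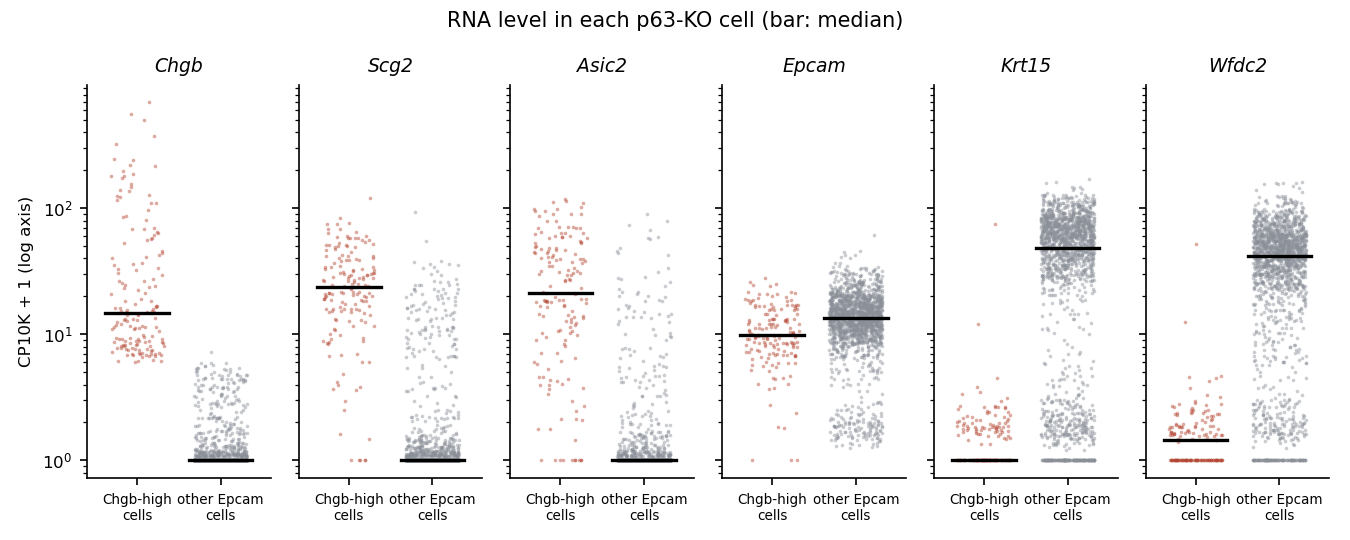
CP10K plus 1 (log axis) of 6 genes in each of the 159 Chgb-high cells (red, left in each panel) and the 1692 other Epcam cells (grey, right) of the p63-KO library, with a bar at the median. Chgb separates the groups because it chose them. Scg2 and Asic2 were present in most Chgb-high cells, Epcam overlapped widely, and Krt15 and Wfdc2 had medians of 0 and 0.451 CP10K in the Chgb-high cells against 47.5 and 40.5 in the others.

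Because the rule chose cells by measured RNA of the same library, every ratio between the members and the other Epcam cells is a description with no test. Ratios are log2 of CPM plus 1 of the summed UMIs, members over other Epcam cells, and intervals cover counting error only. Of 12730 genes with at least 5 CPM in either sum, 22.8% were at least 2-fold higher in the members and 17% at least 2-fold lower, and the median log2 ratio was 0.15. A list median below is the median log2 ratio over the measured genes of a list. These shares are the background for the counts in each list, and since the rule used this contrast nothing is read from the counts.

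Peptide hormone RNAs were abundant and highly unequal among the members. Of 39 listed peptide genes 16 were measured, of which 14 were at least 2-fold higher and 1 at least 2-fold lower (list median 4.16). Calca, which encodes calcitonin and the neuropeptide CGRP (chromosome 7, 114631478 to 114636357), had a median of 11.7 CP10K in members (0 to 129) and 0 in other Epcam cells (0 to 124). Its sum was 1836 CPM (1781 to 1893) in members and 86.1 CPM (84.1 to 88.3) in others, a log2 ratio of 4.40. Thus Calca RNA was spread over most members and was also found in other cells: 106 members and 117 other Epcam cells held at least 5 CP10K.

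Sst, the gene of the inhibitory hormone somatostatin (chromosome 16, 23889573 to 23890958), was restricted to fewer cells. Its median was 0 CP10K in members (0 to 993) and 0 in the others (0 to 447). The sums were 2645 CPM in members and 52.1 CPM in other Epcam cells, a log2 ratio of 5.64. Of the 6025 Sst UMIs in the members, 5637 came from 15 cells, so the sum describes these few cells.

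Pyy, which encodes the satiety peptide YY (chromosome 11, 102106676 to 102107832), had the largest ratio of the peptide genes. It ranged from 0 to 245 CP10K in members, of which 35 held at least 5, and from 0 to 51.0 in other Epcam cells, of which 3 did. The sums were 1238 CPM in members and 6.62 CPM in others, a log2 ratio of 7.35. Cck, the gene of cholecystokinin (chromosome 9, 121489824 to 121495694), had 431 CPM in members and 4.60 CPM in the others, and 22 members and 7 others had at least 5 CP10K. Iapp, the gene of islet amyloid polypeptide (chromosome 6, 142298423 to 142303961), had 1251 CPM in members and 38.7 CPM in others, and 2302 of its 2850 UMIs in members came from 6 cells. Pyy and Cck RNA lay mostly within the members, which held 85.0% and 74.1% of the UMIs of all passing p63-KO cells, against 60.6% for Sst, 49.5% for Iapp and 39.3% for Calca.

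Rarer peptide RNAs appeared in single cells. Gcg, the proglucagon gene, had 150 UMIs in members, all in 1 cell, where it reached 76.6 CP10K. These were 37.5% of the 400 Gcg UMIs in passing p63-KO cells, and 1 other Epcam cell held 227. Nts (neurotensin, 49 UMIs), Pnoc (prepronociceptin, 42) and Sct (secretin, 51) had at least 5 CP10K in 3, 2 and 2 members. Several peptides of the gut and airway were not detected: Ghrl, Grp, Npy, Nmu and Gip had no UMI in 2278256 UMIs of the members, where 3 counts would be 1.32 CPM, and Gast had 2 UMIs. The 1 peptide gene at least 2-fold lower was Edn1, for endothelin 1, with 3.07 CPM in members and 34.8 CPM in the others.

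Thinning each cell to 2000 UMIs gave shares of cells at equal depth. It left 156 members, 1677 other Epcam cells and 445 fibroblasts, whose RNA of these genes serves as the background of free RNA. A Calca UMI was found in 73.7% of members (66.1 to 80.4), 9.0% of other Epcam cells and 0.899% of fibroblasts. Without thinning the shares were 88.1% of members, 35.5% of others and 2.88% of fibroblasts. For Sst the shares were 18.6% of members, 1.37% of others and 0.674% of fibroblasts, and unthinned 30.8%, 18.2% and 3.77%. For Pyy, Cck and Iapp they were 26.3%, 25% and 17.9% of members, against 1.01%, 0.537% and 4.89% of other Epcam cells, with 0 of 445 fibroblasts, which allows 0.674%. Unthinned, they were 30.8%, 44.0% and 47.2% of members, against 6.15%, 4.85% and 23.8% of other Epcam cells. Each of these shares of members lay above that of the fibroblasts.

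The members were sorted by their leading peptide, the peptide gene with the highest CP10K in the cell, if at least 5. UMIs of 3' ends are not scaled by gene length. Calca led in 87 cells, 54.7% (46.6 to 62.6), Sst in 15 cells, 9.43% (5.38 to 15.1), Cck in 12, Pyy in 11 and Iapp in 6. Sct, Pnoc and Cartpt led 1 cell each, and 25 cells, 15.7%, had no peptide at 5 CP10K. Each of the 5 main classes held cells with Xist RNA alone and cells with Y-linked RNA alone, for example 53 and 28 Calca-led cells, 11 and 3 Sst-led cells, and 5 and 1 Iapp-led cells.

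**Figure D2:**
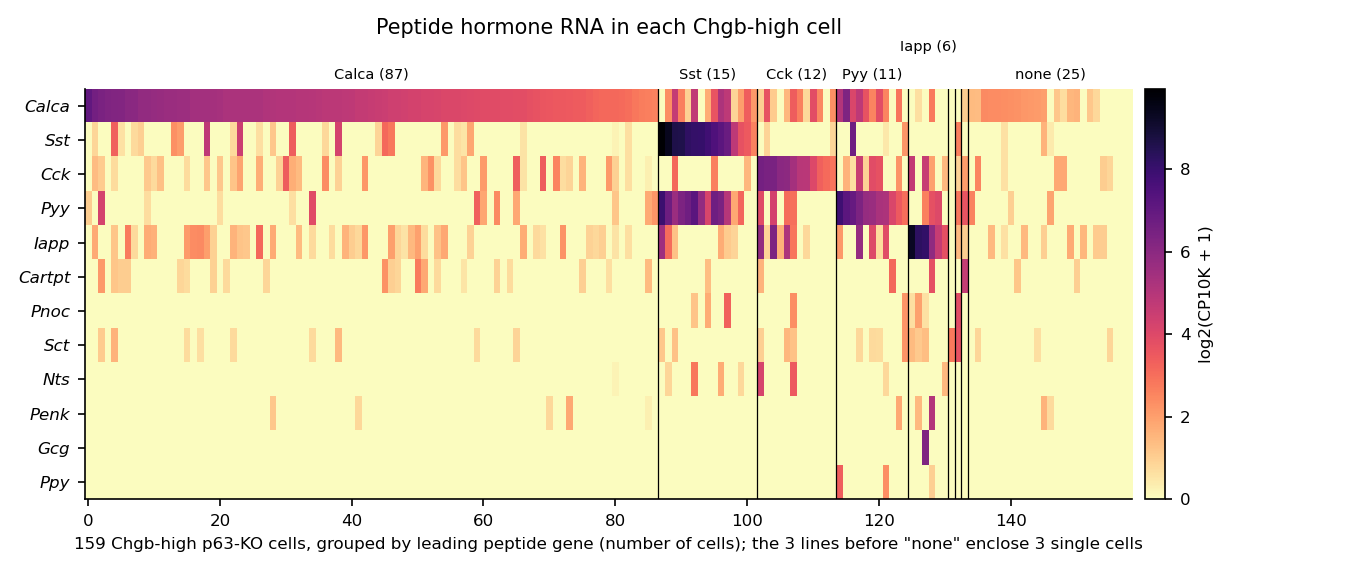
Level of 12 peptide genes as log2 of CP10K plus 1 (colour) in each of the 159 Chgb-high cells (columns), grouped by the peptide gene with the highest level and ordered by that level within a group. Of the 15 Sst-led cells 12 also had Pyy at 5 CP10K or more, whereas most of the 87 Calca-led cells had Calca alone at a high level.

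Peptides were combined in particular cells. Of the 5 main peptide genes, 84 members held exactly 1 at 5 CP10K or more, 31 held 2, 14 held 3, 4 held 4, and 26 held none. Of 106 members with Calca at this level, 72 had it alone among the 5. Sst stood alone in 2 of 24 members, and 14 of the 24 also had Pyy. In the 15 Sst-led cells the median of Pyy was 55.7 CP10K (0 to 245) and that of Calca 4.04 (0 to 35.4). Pyy was also found at this level in 12 of the 17 members with Iapp and in 10 of the 22 with Cck. Iapp stood alone in 2 of 17 and Cck in 5 of 22.

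The leading peptide went with the rest of a cell's RNA. The 10 nearest neighbours of each member were taken on 20 principal components of 2000 variable genes, with all peptide genes left out. Of the neighbours of Calca-led cells 85.3% were Calca-led, against 54.4% of all other members. For Sst-led cells the shares were 60.7% and 8.86%, for Cck-led cells 21.7% and 6.96%, for Pyy-led cells 22.7% and 6.33%, and for Iapp-led cells 25% and 3.16%. For cells without a leading peptide they were 17.6% and 15.2%. All of these cells share 1 library, and the shares are descriptions.

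Chgb RNA itself differed by leading peptide. The median was 12.0 CP10K in Calca-led cells (5.13 to 373), 10.9 in Sst-led cells (5.06 to 57.0), 179 in Cck-led cells (8.41 to 692), 52.2 in Pyy-led cells (6.73 to 241) and 65.7 in Iapp-led cells (7.71 to 136). The classes overlapped, and the threshold on Chgb bears on how many cells of each class were counted. Among the other Epcam cells with 1 to under 5 CP10K of Chgb, Calca had 1185 CPM and Sst 742 CPM, while Pyy had 49.7 and Cck 34.3 CPM.

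**Figure D3:**
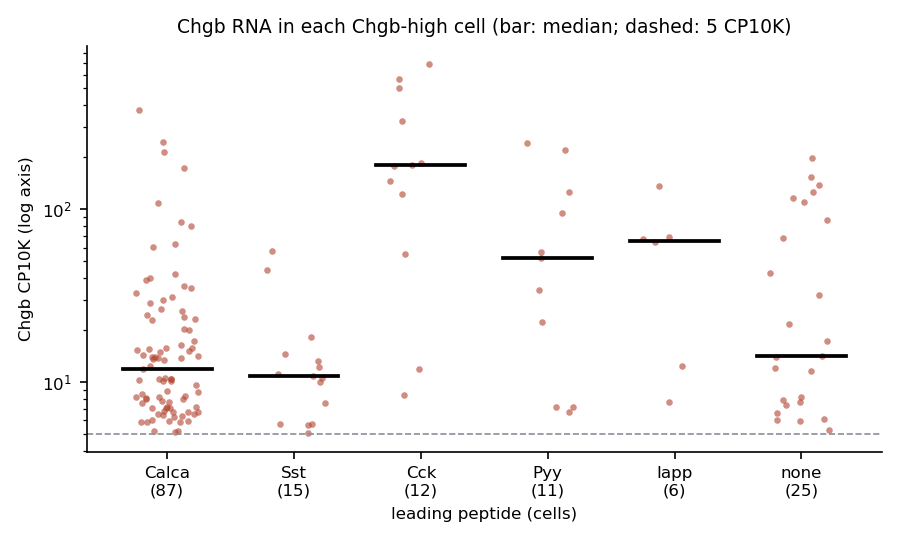
Chgb CP10K (log axis) of each Chgb-high cell by leading peptide, with a bar at the median and a dashed line at the threshold of 5. Medians were 12.0 in Calca-led, 10.9 in Sst-led and 179 in Cck-led cells, and all classes reach down towards the threshold.

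Granule proteins and the enzymes that cut prohormones were higher in the members with few exceptions. Of 20 measured genes of this list other than Chgb, 17 were at least 2-fold higher and 0 at least 2-fold lower (list median 4.25). Scg2, for secretogranin II (chromosome 1, 79434669 to 79440120), had a median of 22.9 CP10K in members (0 to 119) and 0 in the others (0 to 92.1), a log2 ratio of 5.61. Chga, for chromogranin A, had 767 CPM in members and 21.7 CPM in other Epcam cells. Pcsk1n, the inhibitor of prohormone convertase 1, had 661 CPM in members and 9.73 CPM in others, a log2 ratio of 5.95. The convertases Pcsk1 and Pcsk2 had 897 and 768 CPM in members against 35.7 and 16.8 CPM in the others. Resp18, a granule protein, had 170 CPM in members and 1.24 CPM in others, and Ptprn2, a granule membrane protein, 2117 CPM in members and 134 CPM in others. Pam, the enzyme that amidates many peptide hormones, was already present in the other Epcam cells, with 1499 CPM in members and 334 CPM in the others. After thinning, a Scg2 UMI was found in 90.4% of members, 8.29% of other Epcam cells and 0.674% of fibroblasts (96.9%, 27.3% and 4.21% unthinned).

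The machinery of regulated exocytosis followed the same direction. Of 36 measured genes 32 were at least 2-fold higher and 0 at least 2-fold lower (list median 3.48). The SNARE protein gene Snap25 had 1113 CPM in members and 47.4 CPM in other Epcam cells, and Syt1, a calcium sensor of vesicle fusion, 983 CPM in members and 68.8 CPM in others. Cadps, which primes dense-core granules, had 694 CPM in members and 22.02 CPM in others. Rimbp2, of the release site, had a log2 ratio of 4.98. Rab27b (261 CPM in members, 245 CPM in others), Unc13b (151 CPM in members, 137 CPM in others), Sytl5 (22.4 CPM in members, 16.3 CPM in others) and Rab3d (37.7 CPM in members, 75.3 CPM in others) differed by less than 2-fold.

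Most ion channels of excitable cells were higher too. Of 36 measured channel genes 32 were at least 2-fold higher and 3 at least 2-fold lower (list median 3.56). Asic2, an acid-sensing channel and a marker given for these cells, had a median of 20.4 CP10K in members (0 to 117) and 0 in others (0 to 89.6), a log2 ratio of 5.81. The calcium channel genes Cacna1a (1283 CPM in members, 125 CPM in others) and Cacna2d1 (2574 CPM in members, 128 CPM in others), the sodium channel genes Scn3a (559 CPM in members, 24.3 CPM in others), Scn8a (192 CPM in members, 6.52 CPM in others) and Scn9a (239 CPM in members, 8.88 CPM in others), and the potassium channel gene Kcnb2 (1711 CPM in members, 81.0 CPM in others) were among the higher ones. The channels at least 2-fold lower were Kcnma1, of the large calcium-activated potassium channel (577 CPM in members, 1447 CPM in others), and the mechanosensitive channels Piezo1 (3.51 CPM in members, 41.1 CPM in others) and Piezo2 (3.95 CPM in members, 18.4 CPM in others). Htr3a and P2rx2 had no UMI in the members.

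Receptors for nutrients, calcium and peptides were mixed. Of 12 measured, 6 were at least 2-fold higher and 3 at least 2-fold lower (list median 1.29). Galr1, a galanin receptor, had 54.4 CPM in members and 0.655 CPM in others, and Casr, the calcium-sensing receptor, 47.4 CPM in members and 1.003 CPM in others. Ffar2, a receptor of short-chain fatty acids, had 51.4 CPM in members and 3.44 CPM in others, and the somatostatin receptor gene Sstr3 16.2 CPM in members and 0.508 CPM in others. The long-chain fatty acid receptor Ffar4 was lower, with 18.4 CPM in members and 84.6 CPM in others, as was the adenosine receptor Adora1, with 1.32 CPM in members and 9.41 CPM in others.

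Few genes of small transmitter synthesis were measured. Of 6 measured genes 4 were at least 2-fold higher and 1 at least 2-fold lower (list median 3.23). Ddc, which makes serotonin and dopamine from their precursors, had 306 CPM in members and 9.83 CPM in others, and Gch1, for the cofactor of the hydroxylases, 326 CPM in members and 30.1 CPM in others. Gad1, which makes GABA, had 230 CPM in members and 9.55 CPM in others. The rate-limiting enzyme of serotonin synthesis outside the brain, Tph1, had 11 UMIs (4.83 CPM) in the members, and Th, that of dopamine, 4 UMIs. Gad2, Slc32a1, Dbh and Slc6a4 had 0. Hdc, which makes histamine, was lower, with 0.439 CPM in members and 8.76 CPM in others. Chat was among the 4 higher genes, but of its 17 UMIs in members 12 were in the cell with most of the Phox2a RNA. Without that cell Chat had 2.22 CPM in members, under the 5 CPM asked of a measured gene.

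The marker Car10, an inactive relative of the carbonic anhydrases, was 1 of 32 genes of neuronal adhesion and RNA-binding proteins. Of these, 31 were at least 2-fold higher and 0 at least 2-fold lower (list median 3.78). Car10 had 625 CPM in members and 21.9 CPM in others, and its UMIs were found in 85 of 159 members. Dscam had 502 CPM in members and 11.3 CPM in others, and Ctnna2 1667 CPM in members and 43.8 CPM in others. Celf4, an RNA-binding protein of neurons, had 1032 CPM in members and 50.6 CPM in others. Cadm1 (383 CPM in members, 317 CPM in others) was the gene that differed by less than 2-fold.

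**Figure D4:**
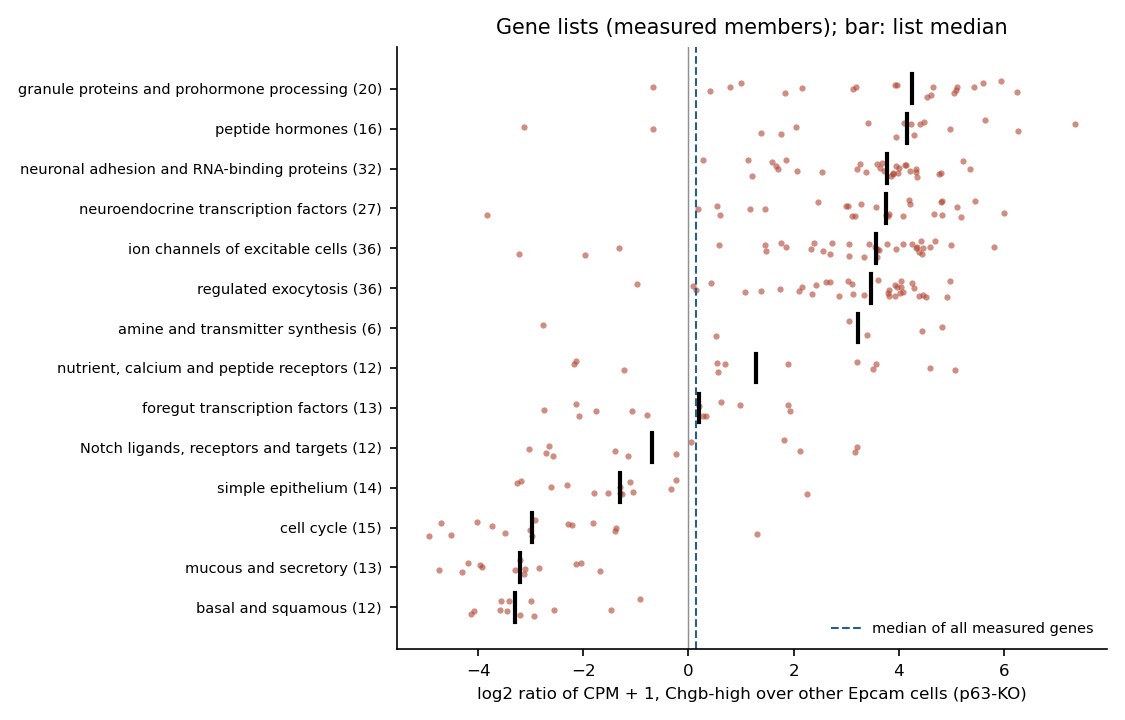
Log2 ratio of CPM plus 1, Chgb-high over other Epcam cells, for each measured gene (point) of 14 lists (number of measured genes in brackets), with a bar at the list median and a dashed line at the median of all 12730 measured genes (0.15). Medians run from 4.25 for granule proteins to -3.31 for basal and squamous genes.

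Transcription factors of neuroendocrine and islet cells accompanied these genes. Of 27 measured factors 23 were at least 2-fold higher and 1 at least 2-fold lower (list median 3.75). Insm1, a zinc finger repressor of endocrine precursors, had 263 CPM in members and 14.6 CPM in others. Isl1, a LIM factor of islets and neurons, had the highest ratio, 6.00, with 138 CPM in members and 1.18 CPM in others. Myt1l had 48.3 CPM in members and 0.134 CPM in others, and Rfx6 39.5 CPM in members and 0.120 CPM in others. Of the 110 Myt1l UMIs in members, 20 came from the cell with most of the Phox2a RNA and 22 from another member without an Epcam UMI. Etv1 (714 CPM in members, 49.97 CPM in others), Runx1t1 (1235 CPM in members, 65.9 CPM in others) and Rfx3 (713 CPM in members, 128 CPM in others) were abundant in the members. Neurog3, the factor of intestinal endocrine precursors, had 4 UMIs (1.76 CPM in members, 1.26 CPM in others), and Pdx1, Pax4 and Neurod4 had none. The 1 factor at least 2-fold lower was Rest, which represses neuronal genes: 6 UMIs were found in 159 members (2.63 CPM), against 51.0 CPM in other Epcam cells. A Rest UMI was found in 3.77% of members and 68.0% of others unthinned, and after thinning in 0 of 156 members (3 counts allow 1.92%), 9.60% of other Epcam cells and 11.0% of fibroblasts.

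Notch pathway genes went in both directions. Of 12 measured, 4 were at least 2-fold higher and 6 at least 2-fold lower (list median -0.69). The inhibitory ligand Dll3 had 69.8 CPM in members and 6.87 CPM in others, and the glycosyltransferase Mfng 31.2 CPM in members and 2.50 CPM in others. The ligand Jag1 (3.07 CPM in members, 25.5 CPM in others), the receptor Notch2 (11.4 CPM in members, 101 CPM in others) and the Notch target Hes1 (30.7 CPM in members, 200 CPM in others) were lower in the members. The ligand Dll1 had 3 UMIs in the members.

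Among the foregut factors, 2 of 13 measured were at least 2-fold higher, Foxa2 (176 CPM in members, 45.3 CPM in others) and Foxp2 (178 CPM in members, 47.2 CPM in others), and 5 at least 2-fold lower (list median 0.19). Nfib had 126 CPM in members and 852 CPM in others and Sox9 10.5 CPM in members and 49.8 CPM in others. Sox2 and Pax9, factors of the esophagus, differed by less than 2-fold, with Sox2 at 85.2 CPM in members and 147 CPM in others and Pax9 at 291 CPM in members and 147 CPM in others.

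Simple epithelium genes ranged from near equal to far lower in the members. Of 14 simple epithelium genes 1 was at least 2-fold higher and 11 at least 2-fold lower (list median -1.30). Epcam had 974 CPM in members and 1223 CPM in others, and Krt7 944 CPM in members and 1109 CPM in others. Krt8 had 457 CPM in members and 1323 CPM in others, Krt18 298 CPM in members and 1037 CPM in others, and Krt19 110 CPM in members and 1009 CPM in others. The tight junction gene Cldn6 was the higher one, with 42.1 CPM in members and 8.02 CPM in others.

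Genes of basal and squamous cells and of mucous cells were low. Of 12 measured basal and squamous genes 0 were at least 2-fold higher and 11 at least 2-fold lower (list median -3.31). Krt15 had a median of 0 CP10K in members (0 to 73.9) and 47.5 in others (0 to 171), and 463 of its 627 UMIs in members came from the deepest cell. Without that cell the list median was -4.07. Trp63, the targeted gene, had 23 UMIs in the members (10.1 CPM), against 118 CPM in the other Epcam cells and 302 CPM in wild-type Epcam cells. As only 3' ends were counted, they are no check of the genotype. Of the 23 UMIs 14 came from the deepest member, without which the level was 4.06 CPM. After thinning, a Trp63 UMI was found in 0 of 156 members (3 counts allow 1.92%), 17.1% of other p63-KO Epcam cells, 43.1% of wild-type Epcam cells and 0.449% of fibroblasts. Unthinned the shares were 6.29%, 68.3%, 84.9% and 2.22%. Of 13 measured mucous and secretory genes 0 were at least 2-fold higher and 13 at least 2-fold lower (list median -3.21). Wfdc2 had 221 CPM in members and 4362 CPM in others, the mucin gene Muc4 16.7 CPM in members and 322 CPM in others, and Cyp2f2 90.4 CPM in members and 1419 CPM in others. The deepest member held 320 of the 503 Wfdc2 UMIs, 20 of the 38 Muc4 UMIs and 140 of the 206 Cyp2f2 UMIs of the members. Without it these genes had 82.6, 8.12 and 29.8 CPM in members, and without the other such cell too Wfdc2 had 62.1 CPM and the list median was -5.19. At equal depth a Wfdc2 UMI was found in 12.2% of members and 10.8% of fibroblasts, and a Krt15 UMI in 11.5% and 9.89%, so the members were near the fibroblast background for both. Unthinned, the shares were 51.6% and 42.8% for Wfdc2, and 49.7% of members and 49.7% of fibroblasts for Krt15.

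Cell cycle genes were low. Of 15 measured cell cycle genes 1 was at least 2-fold higher and 14 at least 2-fold lower (list median -2.98). Mki67 had 2 UMIs and Top2a 3 UMIs in the members (0.878 and 1.32 CPM), against 48.0 and 69.9 CPM in other Epcam cells. The higher gene was the cycle inhibitor Cdkn1b, with 65.4 CPM in members and 25.9 CPM in others. After thinning, an Mki67 UMI was found in 0 of 156 members, 5.78% of other Epcam cells and 3.15% of fibroblasts (1.26%, 29.1% and 7.98% unthinned). The ionocyte factor Foxi1, with 1.32 CPM in members and 46.8 in other Epcam cells, and Gzma, with 0 CPM in members and 3.06 CPM in others, were also low, and Trp73 had 0 CPM in members and 2.62 CPM in others.

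Beyond the lists, the largest ratios included genes of adhesion and signalling. Stk32a, a kinase, had 285 CPM in members and 3.44 CPM in others (log2 ratio 6.01), and its UMIs were found in 68.6% of members and 7.21% of others. Lingo2, a leucine-rich repeat membrane protein of neurons, had 337 CPM in members and 4.25 CPM in others, Sez6l 337 CPM in members and 6.40 CPM in others, and Ly6h 215 CPM in members and 4.06 CPM in others. Nrg3, a ligand of ERBB4, had 336 CPM in members and 5.0 CPM in others and was found in 28.3% of members. Of its 765 UMIs in members, 189 came from the cell with most of the Phox2a RNA. Without that cell Nrg3 had 255 CPM in members. Pappa2, a protease of IGF-binding proteins, had 102 CPM in members and 1.23 CPM in others and was found in 10.7%. The lowest ratios belonged to Slc14a1, a urea transporter (7.46 CPM in members, 226 CPM in others, log2 ratio -4.75), Pdlim1 (16.7 CPM in members, 431 CPM in others), Gsta4 (30.7 CPM in members, 756 CPM in others), Ltf, for lactoferrin (11.8 CPM in members, 303 CPM in others), Lrrc26, Foxq1, Gabrp, Fgfbp1, Fut9 and Wfdc2, the last at -4.30. Without the deepest member 9 of these 10 genes had levels in members that were lower by over 1.5 times.

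Transcription factors differed between the leading peptide classes, again as a description of summed UMIs. Hhex, a homeobox factor that maintains somatostatin cells in the mouse pancreas, had 671 CPM (562 to 795) in the 15 Sst-led cells, 43.7 CPM in Pyy-led and 1.52 CPM in Calca-led cells, and 0 UMIs in Cck-led and Iapp-led cells. It was found in 11 of the 15 Sst-led cells. Isl1 had 19.7 CPM in Calca-led cells, 288 in Sst-led, 282 in Cck-led, 364 in Pyy-led and 1119 in Iapp-led cells. Pax6 had 0 UMIs in Calca-led cells, 247 CPM in Iapp-led cells and 30.3 to 72.8 CPM in the other 3. Rfx6 had 1 UMI in 87 Calca-led cells, and 131 CPM in Sst-led, 94.0 in Cck-led, 36.4 in Pyy-led and 200 in Iapp-led cells. Neurod1 and Nkx2-2 had 15.9 and 22.8 CPM in Calca-led cells, and 200 and 247 CPM in Iapp-led cells. The 6 Iapp-led cells and the 11 Pyy-led cells are few, and single cells can set these levels. A single Iapp-led cell, with 22.4 CP10K of Iapp, held 44 of the 314 Isl1 UMIs of all members. The choice of these factors was made after their values were seen.

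**Figure D5:**
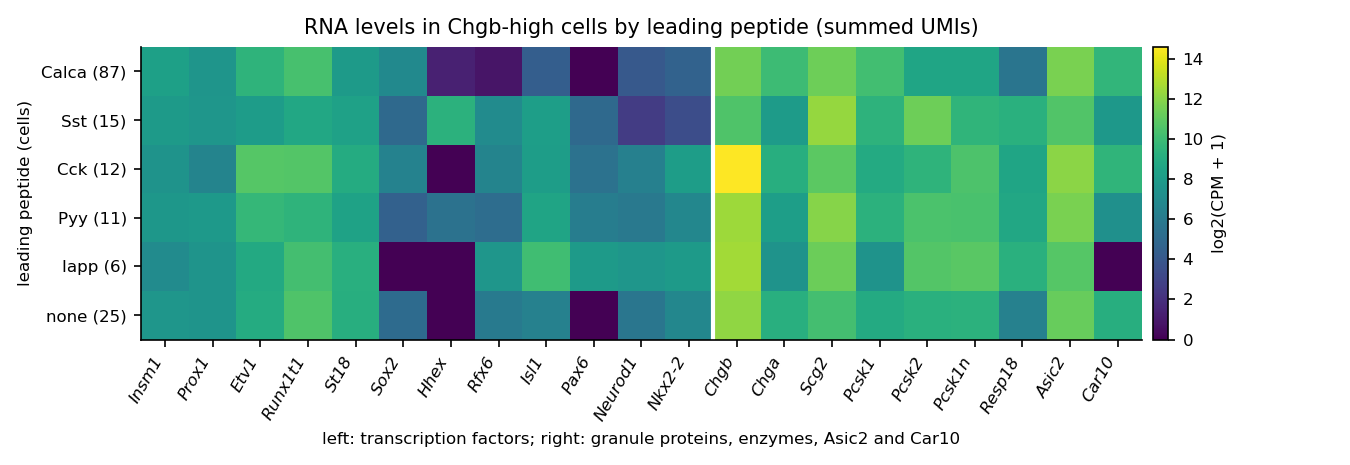
Level as log2 of CPM plus 1 (colour) of 12 transcription factors (left of the white line) and 9 granule, enzyme and marker genes (right) in the Chgb-high cells, summed by leading peptide (number of cells in brackets). Sst-led cells had the highest Hhex (671 CPM) and Iapp-led cells the highest Isl1 (1119 CPM).

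Granule genes varied with the leading peptide as well. Pcsk1 had 1172 CPM in Calca-led cells and 686 in Sst-led cells, whereas Pcsk2 had 379 CPM in Calca-led and 2649 CPM in Sst-led cells. Resp18 had 50.9 CPM in Calca-led cells and between 376 and 613 CPM in the Sst-, Cck-, Pyy- and Iapp-led cells. Chga had 1013 CPM in Calca-led cells and 177 to 576 CPM in the other 4. Car10 had 786 and 758 CPM in Calca-led and Cck-led cells, 222 and 160 CPM in Sst-led and Pyy-led cells, and 0 UMIs in Iapp-led cells. Few cells set some of these levels. All Car10 RNA of the Sst-led cells came from a cell with 28.7 CP10K and a cell with 9.20 CP10K of it. Most of that in Pyy-led cells came from a single cell with 7.17 CP10K, and most Cck-led cells had no Car10 UMI.

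A direct comparison was made of the Sst-led and the Calca-led cells. Of 13381 genes with at least 5 CPM in either sum, 18.2% were at least 2-fold higher in Sst-led cells and 15% at least 2-fold lower, and this contrast has no test, since the cells come from 1 library. After Hhex (log2 ratio 8.06, 6.44 to 9.39), the highest were Stc1, for stanniocalcin 1 (25 UMIs in Sst-led, 0 UMIs in Calca-led cells, at least 55.4-fold higher when 3 UMIs are set for the Calca-led sum), and Rbp4, for retinol-binding protein 4 (474 CPM in Sst-led, 3.04 CPM in Calca-led cells). Lrfn5, the endothelin receptor gene Ednra, Rfx6, the glutamate receptor gene Grin2b, Cntnap3, Gap43 and Pcdh15 completed the 10 highest. Pcdh15, a protocadherin, had 1251 CPM in Sst-led and 23.5 CPM in Calca-led cells. The 10 lowest were led by Pcdh7, with 0 UMIs in Sst-led and 173 UMIs in Calca-led cells (at least 8.68-fold lower against 3 UMIs), and included Agr2, Palmd, Krt4, Col1a1, Pakap, Ccn3, Grm7 and Klk1. Klk1, a kallikrein, had 40.4 CPM in Sst-led and 513 CPM in Calca-led cells. Agr2, Krt4 and Col1a1 each had 1 UMI in Sst-led cells. Single members held 158 of the 186 Agr2 UMIs, 141 of the 175 Krt4 UMIs and 305 of the 675 Klk1 UMIs of the Calca-led cells. Col1a1 RNA lay in few cells too. Of its 365 UMIs in all members, 190 were in a cell without a leading peptide, and 3 members held 1111 of the 1203 collagen UMIs. The median depth was 12374 UMIs in Sst-led and 14135 UMIs in Calca-led cells.

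Of 26 measured neuroendocrine factors 7 were at least 2-fold higher and 10 at least 2-fold lower in Sst-led than in Calca-led cells, with a median of -0.23. Granule genes numbered 6 higher and 2 lower of 21 (median -0.03), and exocytosis genes 2 higher and 8 lower of 37 (median -0.21). Among all 13381 genes the median was 0.12. Mucous genes had 0 higher and 12 lower of 13 (median -2.97), but without the 2 Calca-led cells rich in Wfdc2 RNA 0 were higher and 4 lower of 10 (median -0.87).

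Part of the other Epcam cells carried the same RNAs with less Chgb. The 125 cells with 1 to under 5 CP10K of Chgb held 2718 of the 3938 Scg2 UMIs, 4004 of the 6444 Calca UMIs and 2623 of the 3865 Asic2 UMIs of the 1692 other Epcam cells. Ratios against the cells with no Chgb UMI alone were larger, with log2 ratios of 9.30 for Asic2, 8.98 for Sst, 8.18 for Scg2 and 6.40 for Calca. Of the 125 cells, 97 had Scg2, 85 Calca and 53 Asic2 at 5 CP10K or more, and Insm1 had 163 CPM in their sum. In the 1286 Epcam cells with no Chgb UMI, Insm1 had 4.63 CPM. Krt15 had 275 CPM in the members, 2044 CPM in the 125 cells and 5278 CPM in the cells with no Chgb UMI. Without the deepest member it had 74.0 CPM in the members. The 125 cells had 3503 to 146793 UMIs each, with a median of 15020, so the deepest of them weigh most in these sums. For the 9 further neuroendocrine markers their median was 53.1 CP10K per cell, while their summed level was 2991 CPM.

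Side by side with wild-type Epcam cells, which were a separate library, the summed levels of the same genes were at or near 0 there. Calca had 1836 CPM in the members and 0.349 CPM in wild-type Epcam cells, Scg2 2616 CPM in members and 0.0941 CPM in wild-type Epcam cells, Asic2 2951 CPM in members and 0.202 CPM in wild-type Epcam cells, and Pcsk1n 661 CPM in members and 0.0134 CPM in wild-type Epcam cells. Sst had 2645 CPM in the members and 0 UMIs in 5459 wild-type Epcam cells, where 3 counts would be 0.0403 CPM. Of these wild-type cells, 2 nevertheless held at least 3 of the 9 further neuroendocrine markers. The highest sum of the 9 in a wild-type Epcam cell was 72.1 CP10K, and the median was 0. The groups differ by library as well as by genotype, so library and genotype cannot be told apart.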

How the data were processed

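Single cells of esophageal epithelium at E18.5 were profiled with a 10x Genomics kit that counts 3' ends, 1 library per group. The submitters' processing notes name Cell Ranger 7.1.0 and mm10. Whether intronic reads were counted, which annotation release was used and how cells were called is not stated there. The authors deposited whole-number UMI counts per gene and barcode, with no sign of normalization. No column of another sample was in the tables (0 columns).

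A cell passed with 500 or more genes, 1000 or more UMIs and mitochondrial UMIs of 10% or less. Fibroblasts were cells with at least 20 CP10K of Col1a1, Col1a2 and Col3a1 in sum and no Epcam UMI. UMIs were summed over the cells of each class and scaled to CPM. The log2 ratio took 1 CPM added to each sum, which understates ratios of weakly expressed genes, and a gene was measured at 5 CPM or more in either sum. Chgb and the 5 ciliated genes of the cell rule were left out of counts and medians. Intervals are exact 95% Poisson (CPM) or Clopper-Pearson (shares) intervals, and that of a log2 ratio combines the Poisson bounds of both sums. They cover counting error only, as do limits given as 3 counts. Doublets were kept: cells were scored against simulated doublets (0.8% per 1000 cells), and 5 of the 47 highest-scoring p63-KO cells were members. The scripts were tested on simulated data. With 1 library per group and cells that are not replicates, no test was made.

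The members and gene lists were chosen with earlier results of these data known. Genes named by rule were the given markers, the 15 highest and 10 lowest ratios (at least 100 CPM in the higher sum and a UMI in at least 10% of its cells), and from each list up to 4 largest ratios, up to 2 at least 2-fold the other way and any with at least 500 CPM in members. Also by rule came the 10 highest and 10 lowest of the leading-peptide comparison, peptides leading at least 5 cells, and Trp63, Trp73, Gzma and Foxi1. The rule skips mitochondrial, ribosomal protein, haemoglobin and sex-linked genes and those with Gm or Rik names. Other list members, markers and factors were named after their values were seen. Coordinates are GENCODE M21 on GRCm38, and 32158 of 32285 gene IDs were found there. Alternatives changed the cell rule, the reference cells, the filters, the scaling and the weighting of cells. Python 3.11.15, numpy 2.4.6, scipy 1.17.1, pandas 2.3.3, scikit-learn 1.9.0 and matplotlib 3.10.9 were used. Some list members and genes named by rule are not reported here.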

Additional observations from a re-analysis of the deposited data

How the results depend on the processing

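No paired analysis was possible because each group had 1 library, and for the same reason no replicate could be left out. The number of Chgb-high cells was 243 with a threshold of 2 CP10K of Chgb and 102 with 10, and 100 among cells with Xist RNA alone and 47 among cells with Y-linked RNA alone. Of the 14 list medians 1 changed sign under 16 alternatives: that of foregut transcription factors was 0.19, against -0.18 in cells with Y-linked RNA alone and -0.41 measured from 1 CPM. Of 132 named genes 1 did: Pcdh7 had a log2 ratio of 1.04 in members over other Epcam cells, and -0.43 with a threshold of 10 CP10K. In cells with Y-linked RNA alone 9 peptide genes were at least 2-fold higher. Measured from 1 CPM, 8 amine and transmitter genes were at least 2-fold higher and 3892 genes at least 2-fold lower in Sst-led than in Calca-led cells. Measured from 20 CPM, 1854 genes were at least 2-fold higher and 1397 at least 2-fold lower in members, with 3 receptors higher and 7 basal and squamous genes lower, and 1087 genes were higher and 946 lower in Sst-led cells. A stricter minimum tests fewer genes and a lower one more, and the cells kept change the number too. Shares of the measured genes under these alternatives are not given, so these counts cannot be set against the main ones. Unthinned, a UMI was found in 88.1% of members for Calca, 30.8% for Sst, 44.0% for Cck and 47.2% for Iapp. With a threshold of 2 CP10K of Chgb the thinned shares were 16.2% for Cck and 15.4% for Pyy, and with 10 CP10K 26% for Iapp. With at least 10 CP10K asked of a leading peptide, Calca led 46.5% of members and none led 27.7%. In cells thinned to 2000 UMIs none led 8.97%, where a single UMI equals 5 CP10K. An alternative chosen after seeing the data, other Epcam cells with no Chgb UMI, moved no count of list members in its list's main direction by over 1.5 times, but raised the log2 ratio of Asic2 to 9.30, against 5.81. Leaving out the 1 or 2 members with most Wfdc2 UMIs, also chosen after seeing the data, moved none of these counts by over 1.5 times and lowered the median of basal and squamous genes to -4.07, and with both left out that of mucous genes to -5.19. At a median of 13441 UMIs per member, genes of few UMIs are found in some cells by chance of sampling, so absence from a cell shows little.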
